A study of Mus musculus with 6 samples.

Results

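Esrp1 and Esrp2 encode epithelial splicing regulatory proteins, and Fgfr2, Cd44, Ctnnd1, Enah, Arhgef11 and Slk carry exons that these proteins are known to control. The 8 genes are covered by 27 of the 45281 probes in the deposited table, which names 19057 genes in all, and every probe is described separately. Esrp1 was selected on its knockout and control values, since its probe was already known to differ on these arrays. Its difference is therefore given as a description, without a test. The other 7 genes, with 26 probes, were listed for their known roles, but with earlier results of these data known.

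RNA came from organoids of mouse small intestine, cultures in which crypt epithelium grows as closed bodies with crypt-like buds. The Snai1 knockout group (3 arrays) carried Villin-Cre and Snai1fl/fl, and the control group (3 arrays) carried Villin-Cre alone. Both groups received 0.5 µM tamoxifen for 24 hours before harvest, so the transgene and the drug are common to all 6 samples. The Villin promoter limits Cre to intestinal epithelium. The sources used here give neither the age of the mice nor whether replicates were separate mice, cultures or wells. P-values therefore reflect sample-to-sample variation that could be purely technical.

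Esrp proteins bind GU-rich stretches of pre-mRNA and promote the epithelial choice of exons, and their loss accompanies epithelial-mesenchymal transition (EMT). Snai1 is a zinc-finger repressor that drives EMT and binds E-box motifs in DNA. In epithelium, Esrp activity favours the IIIb form of the growth factor receptor Fgfr2, Cd44 forms with variable exons, short forms of p120-catenin (Ctnnd1), and the epithelial forms of Mena (Enah), the exchange factor Arhgef11 and the kinase Slk. The array did not measure exon inclusion. Each probe gives the level of whatever transcripts contain its sequence, and the sources used here do not place the probes within their genes.

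Promoter sequences were looked up because Snai1 acts on E-boxes. RefSeq promoters (GRCm38.p6, 250 bases before to 50 after the gene start) were found for 6 of the 8 genes, not for Esrp1 or Esrp2. The motif searched was CACCTG, the core of Snail E-boxes, on both strands, so that it appears as CACCTG or CAGGTG. It was present in 20.21% of all 32851 promoters of this length and in 1 of the 7 member promoters, that of Slk. The Slk promoter (chr19:47579769-47580068, plus strand) is shown with the motif in capitals, which begins 66 bases before the gene start. The Arhgef11 promoter (chr3:87617309-87617608, plus strand) is shown beside it because Arhgef11 had the largest difference of the splice targets, and it holds no such motif.
Slk: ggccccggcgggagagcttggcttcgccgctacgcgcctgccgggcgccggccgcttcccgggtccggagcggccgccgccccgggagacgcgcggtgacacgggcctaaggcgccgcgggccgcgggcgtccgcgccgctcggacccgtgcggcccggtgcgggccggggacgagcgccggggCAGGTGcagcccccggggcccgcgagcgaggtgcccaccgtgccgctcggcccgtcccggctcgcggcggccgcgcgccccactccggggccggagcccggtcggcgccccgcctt
Arhgef11: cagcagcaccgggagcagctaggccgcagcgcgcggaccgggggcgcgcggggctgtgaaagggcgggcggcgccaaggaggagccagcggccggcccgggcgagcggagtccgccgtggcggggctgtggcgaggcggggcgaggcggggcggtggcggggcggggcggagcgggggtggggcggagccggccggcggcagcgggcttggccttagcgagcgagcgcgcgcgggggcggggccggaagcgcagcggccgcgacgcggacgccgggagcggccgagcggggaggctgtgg
A match describes these letters and is no evidence of binding.

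The deposited values are on a log scale, taken as log2, and had the same distribution on every array. They ran from 7.71 to 14.78, with a median of 7.87 and an upper quartile of 8.27. Low values are compressed, so differences of dim probes are understated. The brightest probes of 6 of 7 epithelial marker genes lay above the upper quartile, Epcam being the exception. None of 8 fibroblast, 4 immune or 4 endothelial marker genes lay above it. The mean over epithelial markers was 11.55 to 11.82 on knockout arrays and 11.55 to 11.80 on control arrays. Fibroblast markers averaged 7.85 to 7.86 on knockout arrays and 7.86 on every control array. Immune markers averaged 7.84 to 7.88 on knockout and 7.84 to 7.86 on control arrays, and endothelial markers 7.89 to 7.90 and 7.90 to 7.94. The part of other cells in the results was not tested. Snai1 itself differed by -0.0027 ± 0.03 and 0.02 ± 0.03 (SE) at its 2 probes, with means of 7.91 and 7.87 over all arrays, so these probes do not check the labels. Across the table, 40 of 45281 probes changed, 16 higher and 24 lower in the knockout (limma, adjusted p under 0.05), which is 0.0883% of probes. That count was 45 without knockout replicate 1, 15 without knockout replicate 2, 12 without knockout replicate 3, and 18, 21 and 16 without control replicates 1, 2 and 3. With the replicate number as a block it was 17.

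Esrp1, on chromosome 4, was brighter on the knockout arrays. Its single probe, ILMN_2947559, read 11.74, 11.87 and 11.92 on knockout arrays 1 to 3, against 10.48, 10.66 and 10.62 on control arrays 1 to 3. All 3 knockout values lay above all 3 control values, and the gap between the groups was wide beside the spread within each (SD 0.10 on knockout arrays and 0.10 on control arrays, n = 3 each). The log2 difference was 1.26 ± 0.07 (SE), a 2.39-fold higher level on the deposited scale. Knockout minus control was 1.26, 1.21 and 1.30 for arrays of replicate numbers 1, 2 and 3, so the numbered pairs gave nearly one value. Among all 45281 differences this was the 3rd highest, and the 5th largest in either direction. The probe was brighter than 95.74% of probes in its mean, well clear of the compressed end of the scale. In bulk RNA, more cells that express a gene and more RNA per cell cannot be told apart.

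Esrp2, the paralogue on chromosome 8, showed no such difference at either of its probes. The brighter one, ILMN_1243939, read 10.05, 10.18 and 10.26 on knockout arrays, against 10.32, 10.11 and 10.16 on control arrays. The groups overlapped, and the difference was -0.03 ± 0.07 (SE; 95% interval -0.21 to 0.15; limma adjusted p = 0.99). The other, ILMN_1224254, read 8.93 on each of the 3 knockout arrays, against 8.96, 8.94 and 8.86 on control arrays. Its difference was 0.01 ± 0.03 (SE; 95% interval -0.06 to 0.08; limma adjusted p = 0.995). Both intervals lie far below the difference seen at the Esrp1 probe, which was selected for that difference. In the pairs of the same number, ILMN_1243939 differed by -0.27, 0.07 and 0.10, so the sign was not shared.

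**Figure D1:**
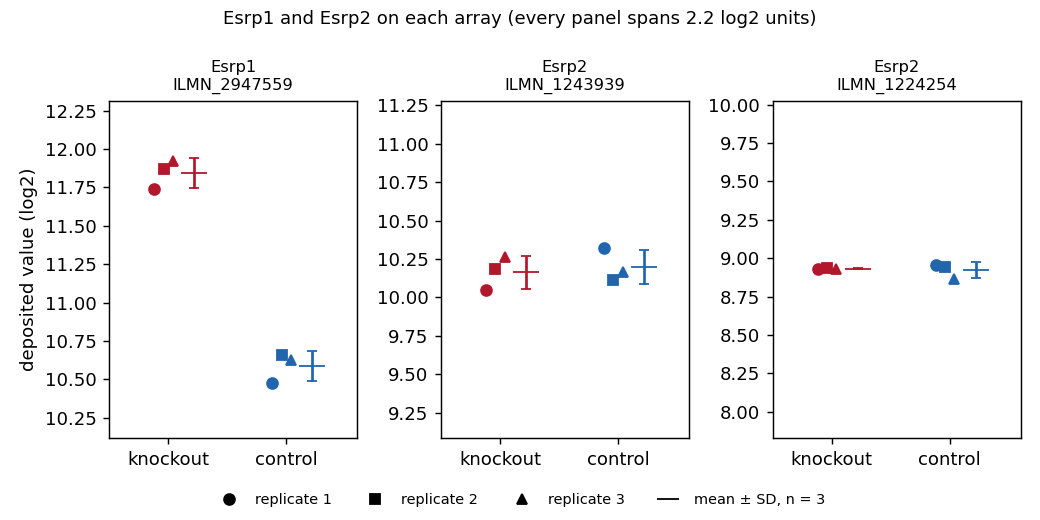
Deposited log2 values of the Esrp1 probe and both Esrp2 probes on the 3 Snai1 knockout and 3 control arrays; marker shapes are replicate numbers, and bars show mean ± SD (n = 3). Knockout arrays lie between 11.74 and 11.92 for Esrp1 and control arrays between 10.48 and 10.66, while the groups overlap at both Esrp2 probes.

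The 6 splice targets showed small differences, none of which passed the test. Of their 24 probes, 8 lay above the upper quartile of all values, and these belonged to Fgfr2, Cd44, Ctnnd1, Arhgef11 and Slk. All 3 Enah probes lay under it. None of the 26 probes of the 7 genes other than Esrp1 changed (limma, adjusted p under 0.05), and 6 had an unadjusted p under 0.05, all higher in the knockout, against 6.23% of all probes. That share rises with brightness: it was 15.3% of all probes above the upper quartile, where 4 of 10 member probes had such a p. Of these 4, Cd44 ILMN_2640330 passed that cut only through its knockout arrays, with means of 8.36 there and 8.24 on control arrays. The 6 became 3 with the offset of the scale removed, 1 of 10 when only probes above the upper quartile were fitted, and 4 to 9 with 1 array left out, with no call in any of these fits. For 5 of the 26 the knockout values lay entirely above the control values, against 5.87% of all probes, and for 0 of 26 entirely below, against 5.37%. Several of these probes read the same gene, so they are not separate observations.

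The 8 target probes above the upper quartile had a higher mean in the knockout in 8 of 8 cases, by 0.08 to 0.21 with a median of 0.12. They read only 5 genes, so they are not separate observations. Cd44 ILMN_2640330 is among them only through its knockout arrays. Of all probes above the upper quartile, 51.09% had a higher mean and the median difference was 0.0026. In 3 of the 8, Cd44 ILMN_2640330 among them, the groups did not overlap. Of all bright probes, 8.31% had knockout values entirely above control. The other 16 target probes, at or under the upper quartile, had 9 higher and 7 lower means, with a median difference of 0.0044. Their values are in the compressed range, from 7.79 to 8.10.

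Arhgef11, a guanine nucleotide exchange factor, had the largest difference of the targets. Its single probe, ILMN_2720356 on chromosome 3, read 10.08, 10.11 and 10.17 on knockout arrays, against 9.996, 9.79 and 9.93 on control arrays. The groups did not overlap, but the lowest knockout value lay only a little above the highest control value. The difference was 0.21 ± 0.06 (SE; 95% interval 0.08 to 0.35), 1.16-fold, with an unadjusted p of 0.0094 and a limma adjusted p of 0.55. It was higher in 3 of 3 pairs, by 0.08, 0.32 and 0.24.

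Cd44, a hyaluronan receptor and Wnt target on chromosome 2, was read by 9 probes, more than any other gene here. ILMN_1223697, the brightest, read 9.90, 10.04 and 10.04 on knockout arrays, against 9.85, 9.94 and 9.82 on control arrays. Control array 2 lay above the lowest knockout array, and the difference was 0.12 ± 0.05 (SE; limma adjusted p = 0.80). By numbered pair it was 0.05, 0.10 and 0.22. ILMN_2640330 read 8.38, 8.38 and 8.33 on knockout arrays, against 8.23, 8.24 and 8.24 on control arrays. Here the groups were apart and the control arrays nearly equal, with a difference of 0.13 ± 0.02 (SE; unadjusted p = 0.00089, the lowest of the 26 probes; limma adjusted p = 0.23). ILMN_2697830 also had groups apart, at 8.09, 8.13 and 8.09 on knockout arrays, against 8.04, 7.99 and 8.03 on control arrays, with a difference of 0.08 ± 0.02 (limma adjusted p = 0.59). ILMN_3114585 differed by 0.11 ± 0.08 with overlapping groups, and by 0.13, 0.0072 and 0.19 in the numbered pairs. The other 5 probes, with means of 7.83 to 8.10, differed by -0.05 to 0.0042. The Cd44 probes thus did not share a sign: the 5 brightest had a higher mean in the knockout and the 4 dimmest a lower one.

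Slk, a kinase of the cytoskeleton on chromosome 19, had 3 probes, each with a higher mean in the knockout. ILMN_2888786 read 9.57, 9.51 and 9.66 on knockout arrays, against 9.42, 9.49 and 9.48 on control arrays. The groups just failed to overlap, and the difference was 0.12 ± 0.04 (SE; unadjusted p = 0.034; limma adjusted p = 0.75). The dim ILMN_2616980 likewise had groups apart, at 7.98, 7.92 and 7.91 on knockout arrays, against 7.88, 7.89 and 7.83 on control arrays, and differed by 0.07 ± 0.03 (limma adjusted p = 0.77). The brightest, ILMN_2759289, read 9.77, 9.51 and 9.62 on knockout arrays, against 9.62, 9.56 and 9.48 on control arrays. These overlapped, with a difference of 0.08 ± 0.07 (limma adjusted p = 0.96), and of 0.14, -0.06 and 0.14 in the numbered pairs.

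Fgfr2, a fibroblast growth factor receptor gene on chromosome 7, had a single bright probe among 4. ILMN_1225071 read 9.70, 9.87 and 9.84 on knockout arrays, against 9.68, 9.87 and 9.48 on control arrays. Only control replicate 3 stood apart from the other arrays, and the difference was 0.12 ± 0.10 (SE; 95% interval -0.13 to 0.38; limma adjusted p = 0.96). In the numbered pairs it was 0.02, -0.0035 and 0.36. The other 3 probes lay between 7.86 and 7.92 in their means and differed by 0.0089 to 0.05. The platform annotation assigns 3 of the 4 Fgfr2 probes to one transcript record and ILMN_1229167 to another. That probe read 7.89, 7.91 and 7.83 on knockout arrays, against 7.90, 7.85 and 7.85 on control arrays, near the median of all probes on every array.

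Ctnnd1, which encodes p120-catenin, the stabiliser of cadherins at junctions, lies on chromosome 2 and likewise had a single bright probe among 4. ILMN_2610460 read 10.19, 10.43 and 10.33 on knockout arrays, against 10.11, 10.06 and 10.38 on control arrays. The groups overlapped, and the difference was 0.13 ± 0.10 (SE; 95% interval -0.11 to 0.38; limma adjusted p = 0.95). By numbered pair it was 0.08, 0.37 and -0.05. The other 3 probes had means of 7.79 to 7.82, at the bottom of the scale, and differed by -0.0060 to 0.03.

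Enah encodes Mena, an actin regulator at cell edges and junctions, and lies on chromosome 1. Its 3 probes had means of 7.90 to 8.09. ILMN_1244697 read 8.01, 8.08 and 8.04 on knockout arrays, against 8.01, 8.30 and 8.13 on control arrays. It was the target probe with the lowest difference, at -0.10 ± 0.07 (SE; limma adjusted p = 0.94), and the groups overlapped. By numbered pair it differed by 0.0034, -0.22 and -0.09. ILMN_2636855 differed by 0.03 ± 0.03 and ILMN_2636853 by -0.02 ± 0.04. At these levels a loss or gain of Enah would be compressed.

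**Figure D2:**
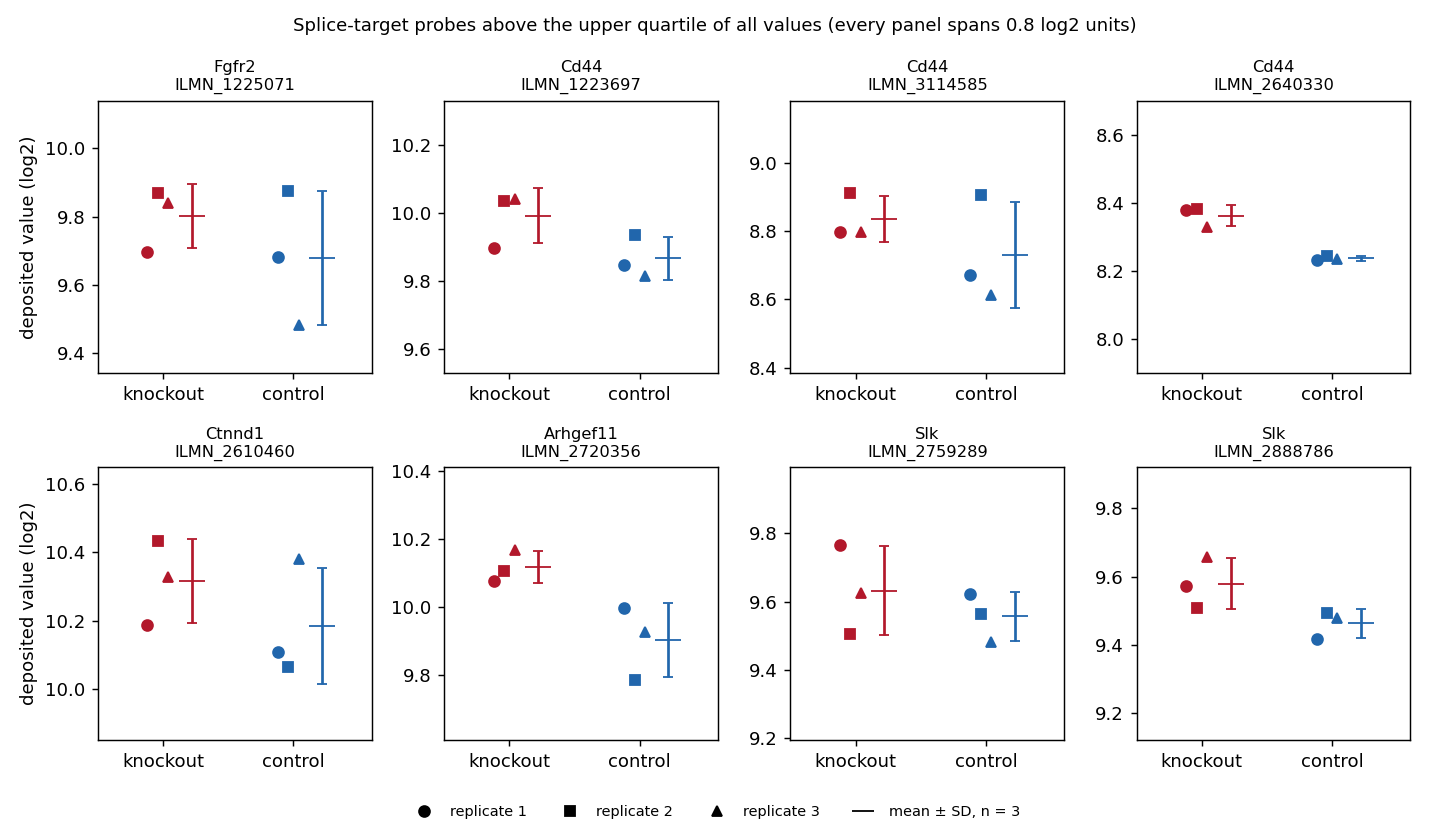
Deposited log2 values of the 8 splice-target probes above the upper quartile of all values, on 3 Snai1 knockout and 3 control arrays; marker shapes are replicate numbers, bars mean ± SD (n = 3), and every panel spans the same range. The groups do not overlap for Cd44 ILMN_2640330, Arhgef11 and Slk ILMN_2888786, and overlap in the other 5 panels.

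**Figure D3:**
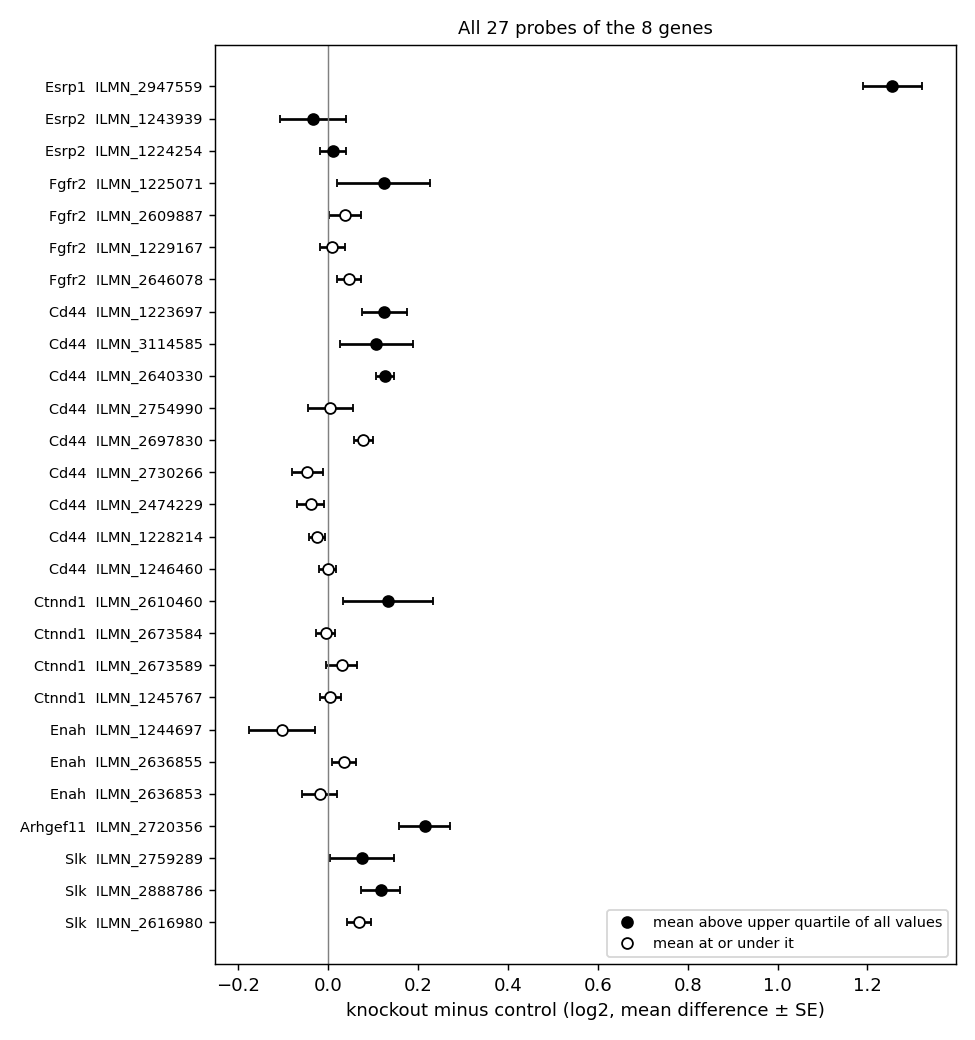
Mean knockout minus control difference (log2, ± SE) of all 27 probes; filled points have a mean above the upper quartile of all values and open points do not. The Esrp1 probe stands at 1.26, while the other 26 lie between -0.10 and 0.21.

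Probes of a gene could move apart if they read different transcript forms, so each gene's brightest probe was compared with its other probes within arrays. The value is the log2 ratio of the brightest to the other probe, and the same limma test was run on all 15828 such pairs from 9172 genes. Of these, 29 changed (0.183%), and that count was 6 to 17 when any 1 array was left out, namely 13, 8 and 6 without knockout replicates 1, 2 and 3 and 12, 11 and 17 without control replicates 1, 2 and 3. With the replicate block it was 11. None of the 19 pairs from Esrp2, Fgfr2, Cd44, Ctnnd1, Enah and Slk changed by this test. At an unadjusted p under 0.05 there were 3, against 6.82% of all pairs. All 3 were from Cd44 and shared its brightest probe, so they are not separate observations. The number of such member pairs was 1 without knockout replicate 2 or 3 and 2 without control replicate 1 or 3. It was 4 without knockout replicate 1 and 5 without control replicate 2.

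The Cd44 pair with the lowest p set ILMN_1223697 against ILMN_2474229. The log2 ratio was 2.07, 2.13 and 2.14 on knockout arrays, against 1.97, 1.99 and 1.90 on control arrays, a difference of 0.16 ± 0.04 (SE; limma adjusted p = 0.43). The ratio to ILMN_1228214, the only Cd44 probe that the annotation places on a second transcript record, was 2.04, 2.16 and 2.19 on knockout arrays, against 1.96, 2.03 and 1.94 on control arrays. It differed by 0.15 ± 0.05 (limma adjusted p = 0.63), with groups that did not overlap. The denominators of both ratios had means of 7.90 and 7.87, at the compressed end of the scale, where a change would hardly register. For the pair with both Slk probes above the upper quartile the difference was -0.04 ± 0.08, and for the Esrp2 pair -0.04 ± 0.07 (limma adjusted p = 0.98 and 0.97).

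No probe of the further genes with reported Esrp-dependent exons passed the test. Of 31 such genes 29 were measured, by 97 probes, of which none changed in either direction (limma, adjusted p under 0.05). At an unadjusted p under 0.05 there were 7 of 97, 4 higher and 3 lower, against 6.23% of all probes. Above the upper quartile it was 4 of 35, against 15.3% of all such probes. When 1 array was left out, the 7 became between 4 (without knockout replicate 2 or 3) and 12 (without control replicate 1). With the replicate block there were 16, and still no call, where 8.70% of all probes had such a p. The median difference was 0.0047, against 2.5e-05 over all probes. Map3k7, the kinase Tak1 of inflammatory and TGF-beta signalling, differed by 0.11 ± 0.02 (limma adjusted p = 0.28). That was at one of its 2 probes, and the other differed by 0.0071 ± 0.10. Ralgps2, an exchange factor for Ral, had 7 probes that did not share a sign. The knockout values lay above the control values at ILMN_1247585, by 0.13 ± 0.03, and below them at ILMN_2705139 and ILMN_1223721, at -0.11 ± 0.04 and -0.05 ± 0.02 (limma adjusted p = 0.47, 0.73 and 0.73). The integrin gene Itga6 differed by 0.13 ± 0.03 at its brightest probe and by -0.07 ± 0.10 and -0.06 ± 0.11 at the other 2 (limma adjusted p = 0.52, 0.98 and 0.98). The 6 probes of the junctional scaffold gene Magi1 ran from -0.06 to 0.06, with the lowest p at -0.06 ± 0.02 (limma adjusted p = 0.72).

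Other regulators of the same exons were also measured. Of 62 probes for 18 RNA-binding protein genes none changed in either direction, and 10 had an unadjusted p under 0.05, 9 of them higher (limma). All 10 were among the 40 of these probes above the upper quartile, where 15.3% of all probes had such a p. The median difference was 0.05, against 2.5e-05 over all probes and 0.0026 over those above the upper quartile. Ptbp1, a repressor of many exons including those of Fgfr2, read 13.16 ± 0.08 on knockout arrays and 12.89 ± 0.02 on control arrays at its probe of lowest p (SD, n = 3 each), a difference of 0.27 ± 0.04 (SE; limma adjusted p = 0.18). Hnrnph1, which encodes a splicing factor that binds runs of G, differed by 0.16 ± 0.03, the splicing activator gene Srsf1 by 0.12 ± 0.03 and Khdrbs1, which encodes Sam68 and acts on Cd44 exons, by 0.16 ± 0.04 (limma adjusted p = 0.37, 0.45 and 0.55), each at its probe of lowest p. Each of these named probes was higher in 3 of 3 pairs, which their choice by lowest p favours. The other probes of these 4 genes had a higher mean in the knockout too. The 1 probe that was lower at an unadjusted p under 0.05 was Rbm47 ILMN_2693777, at -0.10 ± 0.03 (SE; limma adjusted p = 0.55). Of the 5 Rbm47 probes, 3 had a higher mean and 2 a lower one.

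No probe of the listed EMT repressor genes changed, and whether these genes act on Esrp1 here was not tested. The 18 probes covered 9 genes. Snai1 was among them, and its dim probes do not check its deletion. Above the upper quartile lay 2 of the probes. At an unadjusted p under 0.05 there were 2 of 18, both higher (limma), against 6.23% of all probes. Snai3 differed by 0.13 ± 0.05, Zeb2 by 0.04 ± 0.02 at a level of 7.82 (its 5 probes ran from -0.02 to 0.04), Tcf3 by 0.08 ± 0.05 and Snai2 by -0.03 ± 0.02 at a level of 7.82 (limma adjusted p = 0.77, 0.77, 0.92 and 0.94). The other Tcf3 probe differed by 0.03 ± 0.04. Of 19 probes for 9 epithelial transcription factor genes none changed, and 4 had an unadjusted p under 0.05, 2 in each direction. These 4 were among the 10 of the 19 above the upper quartile, against 15.3% of all such probes. Of the 3 probes of Elf3, an epithelial ETS factor, the 2 of lowest p pointed in opposite directions. ILMN_2621659 read 9.52 ± 0.04 on knockout arrays and 9.76 ± 0.05 on control arrays, and ILMN_2850233 read 12.16 ± 0.16 and 11.91 ± 0.11 (SD, n = 3 each; limma adjusted p = 0.13 and 0.74). The other, ILMN_2692072, differed by -0.08 ± 0.11 (SE), with overlapping groups. Klf5, a factor of proliferating crypt cells, differed by 0.11 ± 0.04 and Klf4 by -0.06 ± 0.03, each at the brightest of its probes (limma adjusted p = 0.69 and 0.80).

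Genes around Fgfr2 signalling were mostly dim, with 4 of 25 probes above the upper quartile. None changed in either direction, and 1 of 25 had an unadjusted p under 0.05 (limma), against 6.23% of all probes. Fgf1 differed by 0.11 ± 0.04, Etv5, a target of this signalling, by 0.09 ± 0.04 and -0.03 ± 0.02 at 2 probes, and Fgf9 by -0.09 ± 0.04 (limma adjusted p = 0.67, 0.83, 0.87 and 0.88). The other probe of Fgf1 differed by 0.0049 ± 0.02 and that of Fgf9 by 0.0048 ± 0.02. Among partners of the target proteins none of 20 probes changed, and 1 had an unadjusted p under 0.05 (limma), against 6.23% of all probes. That was Zyx, whose product zyxin binds Mena, at 0.17 ± 0.03 (limma adjusted p = 0.32). Ctnna1, the alpha-catenin gene, differed by 0.13 ± 0.06 and Rhoa by -0.04 ± 0.02 at a level of 7.81 (limma adjusted p = 0.85 and 0.84). Ctnnb1, the beta-catenin gene, had 4 probes of differing sign. The brightest, at a level of 12.67, differed by -0.0074 ± 0.06, those at 11.16 and 8.92 by 0.11 ± 0.22 and -0.24 ± 0.14, and the dim one at 7.86, which had the lowest p, by -0.05 ± 0.02 (limma adjusted p = 0.999, 0.98, 0.92 and 0.88).

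Along chromosome 4, the difference at Esrp1 was not shared by its immediate neighbours. Of the 10 measured genes on each side, read by their brightest probes, none changed in either direction. Of these 20, 1 had an unadjusted p under 0.05 (limma), against 6.23% of all probes. The median difference of the 20 was 0.0039. Dpy19l4, next to Esrp1 on one side, differed by 0.03 ± 0.02 and Virma, on the other side, by -0.11 ± 0.09 (limma adjusted p = 0.93 and 0.95). The exception was Trp53inp1, a p53-induced gene 5 places away. It read 9.75, 9.63 and 9.75 on knockout arrays, against 9.22, 9.01 and 9.24 on control arrays. The groups were apart, and the difference was 0.55 ± 0.07 (SE; limma adjusted p = 0.13, and 0.052 with the replicate number as a block). Cdh17, an intestinal cadherin gene, differed by 0.15 ± 0.22, and its arrays of the same number ran together. It was higher in 3 of 3 pairs, by 0.14, 0.22 and 0.10, with an SE of 0.03 under the replicate block (limma unadjusted p = 0.0056, adjusted p = 0.25). Rad54b, a recombination gene, differed by -0.05 ± 0.08. The 4 genes between Trp53inp1 and Esrp1 differed by -0.02 to 0.03.

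**Figure D4:**
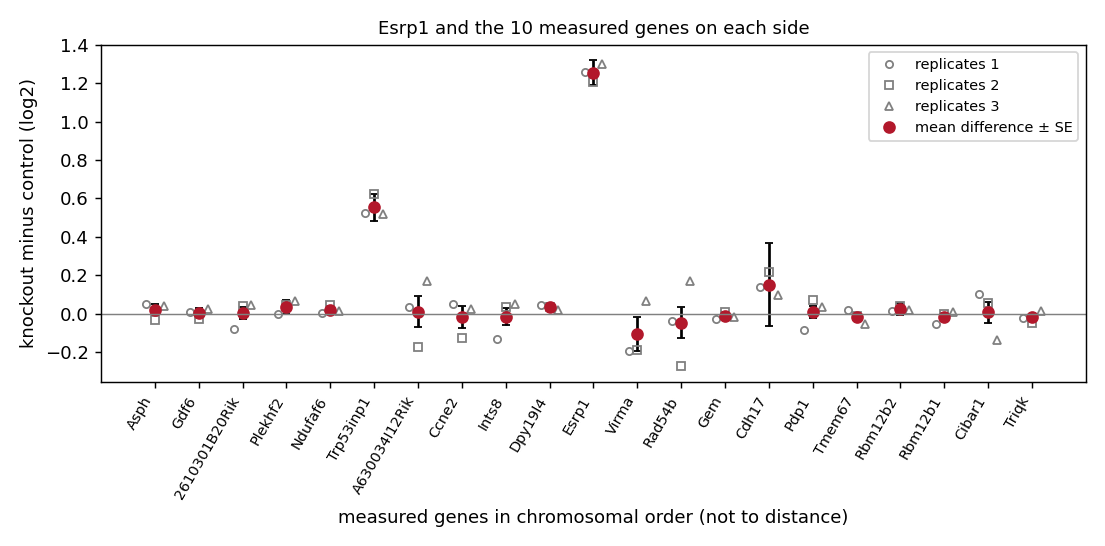
Knockout minus control difference (log2) of Esrp1 and the 10 measured genes on each side, in chromosomal order and not to distance; filled points are means ± SE and open markers the 3 pairs of the same replicate number. Esrp1 stands at 1.26 and Trp53inp1 at 0.55, and the other 19 genes lie between -0.11 and 0.15.

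The genes whose values ran most like Esrp1 over the 6 arrays were found by Pearson correlation among 6968 other genes above the upper quartile, as a description. They were Ctse (r = 0.995), which encodes cathepsin E, the semaphorin gene Sema5a (r = 0.995), the transporter gene Atp13a3 (r = 0.994), the spindle gene Ckap2 (r = 0.993) and Erdr1 (r = 0.993). The arrays fall into 2 clusters on the Esrp1 probe, the genotypes, so these values reflect the difference between groups. On the log2 scale the differences were 0.77 for Ctse, 0.80 for Sema5a, 0.10 for Atp13a3, 0.21 for Ckap2 and 3.96 for Erdr1. Erdr1 read 7.91, 7.92 and 7.98 on control arrays, under the upper quartile of 8.27 and in the compressed range. It entered the compared genes only through its knockout values of 11.74, 12.16 and 11.80. None of the 5 lies on chromosome 4.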

How the data were processed

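Biotin-labelled cRNA of 6 organoid samples was hybridised to Illumina arrays, per the labels' protocols. The deposited table holds log2 values (the base of the log is assumed), whose sorted values differ by at most 0.0019 between arrays, so the distributions had been equalised before deposit. The sources used here name neither the software nor the background correction. Values were used as deposited, with no filter. The platform annotation names 1 gene for 34885 probes, several for 18 and none for 10378. Symbols were checked by gene number for 34807 probes against RefSeq's GRCm38.p6 table, which also gave the order of genes.

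Knockout was compared with control per probe with limma 3.58.1 in R 4.3.3 (lmFit, eBayes without trend), with Benjamini-Hochberg adjustment over all 45281 probes. The same fit was run on 15828 within-gene probe pairs, and was checked on simulated data. Intervals are 95%. The number of arrays limits the precision, with a median SE of 0.066 above the upper quartile. The members, lists and named genes were chosen with earlier results of these data known. Named were all member probes, the 4 probes of lowest p in each list, the 4 Esrp1 neighbours of largest difference and the 5 genes most like Esrp1. Dpy19l4 was added afterwards. Deviations from group means correlated at r = 0.32, 0.29 and 0.43 between arrays numbered 1, 2 and 3. The numbers were therefore taken to pair the samples in the replicate block. Other SEs, intervals and p-values are from the unpaired fit. With the block, the SE at Esrp1 was 0.03 in place of 0.07. It was larger in other fits, at 0.13 with the offset removed and 0.11 with a variance trend. With only probes above the upper quartile it was 0.08. Of the 26 other member probes, 6 had an unadjusted p under 0.05 with the block (limma), where 8.70% of all probes did. The labels do not say what a number shares. Alternatives were the replicate block, normalization, scale, filters on dim probes, variance models, array weights, 1 probe per gene and leaving out each array.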

Additional observations from a re-analysis of the deposited data

How the results depend on the processing

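The Esrp1 difference lay between 1.20 and 1.31 when any 1 array was left out and was 1.37 after the lowest value of the table was subtracted and 16 added before the log. No probe of the other 7 genes, none of the further Esrp targets and none of the 19 member pairs passed in any of the 16 alternatives run on them; the pairs could not be formed with 1 probe per gene. The count of all changed probes was 17 with the replicate block, 72 with the offset removed, 84 with a variance trend and 25 with 1 probe per gene, and 12 to 45 without 1 array. The share of these that was higher was 40.0% as fitted, 52.78% with the offset removed and 58.82% with the block. The count of changed pairs was 11 with the block, 17 and 9 with probes above the median or upper quartile, where fewer pairs were tested, and 6 to 17 without 1 array. Apart from the filters and left-out arrays, the cause was not tested. Ckap2 was chosen for its likeness to Esrp1 over the same arrays. It passed as fitted (limma adjusted p = 0.028) but not with the replicate block (0.12). Nor did it pass with the offset removed, with the filters on dim probes, with a variance trend or with any 1 array left out. The block changed no other call of a named probe. Trp53inp1 passed with the offset removed (adjusted p = 0.021), with probes above the upper quartile (0.017) and with a variance trend (0.010), by limma. With array weights the Snai1 probe ILMN_2904765 had a difference of 0.000176 in place of -0.0027. Leaving out 1 array turned the sign of 13 differences that had not passed. Their ranges were -0.0191 to 0.0284 (ILMN_1224254) and -0.0824 to 0.0273 (ILMN_1243939) for Esrp2, -0.00607 to 0.0329 (ILMN_1229167) for Fgfr2, -0.00839 to 0.0111 (ILMN_1246460) and -0.0246 to 0.0613 (ILMN_2754990) for Cd44, -0.0149 to 0.0219 (ILMN_1245767), -0.0185 to 0.0116 (ILMN_2673584) and -0.00185 to 0.059 (ILMN_2673589) for Ctnnd1, -0.0556 to 0.00585 (ILMN_2636853) for Enah, -0.0043 to 0.0371 (ILMN_1241355) and -0.0257 to 0.0217 (ILMN_2904765) for Snai1, -0.0199 to 0.349 (ILMN_2648968) for Cdh17, where leaving out an array breaks a pair and the 3 pair differences share a sign, and -0.118 to 0.0274 (ILMN_3161959) for Rad54b. Dim probes lie in the compressed part of the scale, which limits what differences could be seen.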
